A study of Mus musculus with 12 samples.

Results

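The 10 genes described here, *Ttr*, *Folr1*, *Aqp1*, *Kcnj13*, *Kcne2*, *Slc4a5*, *Cldn2*, *Kl*, *F5* and *Tmem72*, are expressed by the epithelium of the choroid plexus. They were chosen from measured values. In the comparison of *Gpr75-/-* with WT mice fed chow, the authors' fit left the p-value of each of them blank for a count outlier, meaning that the count of at least 1 mouse lay far from what the fit predicted. That happened to 11 of the 16855 genes listed on chow (0.0653%), so the chow values of these 10 genes are given as a description without a test. The genes were measured in the same mice and are not replicates of each other. They are 10 of the 17161 genes listed on either diet.

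The study asked how GPR75, a G protein–coupled receptor, acts on the central control of feeding. Hypothalamus mRNA came from 12 male mice, 3 in each of 4 groups. WT mice and *Gpr75-/-* mice ate either chow or, from 6 weeks of age, a high-fat diet (HFD) for 2 weeks, and all were 8 weeks old. The *Gpr75-/-* mice carry a CRISPR/Cas9 null allele made in *C57BL/6J* mice. Its reading frame is lost shortly after the start codon and ends early.

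The choroid plexus is a fringe of vascular tissue that hangs into the brain ventricles, including the third ventricle, whose walls are formed in part by the hypothalamus. Its epithelium secretes cerebrospinal fluid by moving ions and water from blood to ventricle, and its tight junctions form the barrier between blood and cerebrospinal fluid. It also makes or takes up carriers of thyroid hormone, retinol and folate for the brain. The hypothalamus itself holds no choroid plexus epithelium, and neurons, glia and tanycytes make up most of its cells.

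The values used are 1 per gene and diet or 1 per gene and group, since no values of single mice were analysed here. Levels are in normalized counts, the reads of a gene divided by the size factor of the mouse. They are not divided by transcript length, so an order of genes by mean count is not an order of molecules. The mean of each group follows from the mean over 6 mice and the log2 ratio of *Gpr75-/-* to WT. An average mouse had 18280462 normalized counts on chow and 19420111 on the HFD. On the scale of CPM, counts scaled to a common total, a value of 1 stands for 18.3 normalized counts on chow and 19.4 on the HFD. The diets were scaled separately, and levels are not compared between them. Of 24 markers of hypothalamic neurons, 23 had a row on each diet, all but *Kiss1*, with a summed level of 19615 normalized counts in chow-fed WT mice. All 16 thalamus and habenula genes also had a row, with a sum of 34815, so rows alone do not set the hypothalamus apart from its neighbors. *Pmch*, *Hcrt* and *Oxt* had the highest means of that list, 4589, 2224 and 2058 normalized counts on chow.

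A second kind of value shows how the mice of a group share a level. For each group, the authors list a number that was read as log2(1 + m), where m is the mean over 3 mice of log2 CPM with every mouse under 1 CPM set to 0. This scale was inferred from the values. Among genes with a mean of at least 100 normalized counts, m differed from the log2 of the group's mean CPM by a median of -0.015 to -0.005 in the 4 groups, and no gene of any group fell more than 0.05 below the lowest m that its mean CPM allows. All members but *Ttr* and *Kl* lay below a mean of 100 on chow, where that difference was not examined. When 3 mice have like levels, m and the log2 of the mean CPM are close. When 1 mouse holds most of the reads, m is far lower. Both values together give the lowest and the highest share of the group's summed level that the highest mouse can have held. They do not say which mouse that is, nor whether it is the same mouse for every gene.

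*Ttr* encodes transthyretin, the carrier of thyroxine and of retinol-binding protein in cerebrospinal fluid (ENSMUSG00000061808, GRCm39 chr18:20798337-20807378). On chow its mean was 172 normalized counts in WT mice and 5649 in *Gpr75-/-* mice. The mean log2 CPM was 2.48 in WT mice and 3.69 in *Gpr75-/-* mice, where 3 equal *Gpr75-/-* mice would have given 8.27. A single *Gpr75-/-* mouse therefore held 99.6% to 99.8% of the summed level of its group, or 16882 to 16908 of 16947 normalized counts. The rest of the *Gpr75-/-* group held 39.0 to 65.0 normalized counts. The 3 WT mice had a sum of 515, of which all but the highest mouse held 96.6 to 267. The WT mice were uneven as well, with 48.2% to 81.3% of their sum in the highest mouse. The log2 fold change of 5.04 (SE 2.21) is thus a value of 1 mouse. In bulk tissue, fewer cells of a type and less RNA per cell cannot be told apart, here and in all results below.

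*Folr1* encodes the folate receptor α that carries folate across the choroid plexus (ENSMUSG00000001827, chr7:101507538-101519995). Its mean was 11.4 normalized counts in WT and 84.9 in *Gpr75-/-* mice on chow, a log2 fold change of 2.90 (SE 1.46). The highest *Gpr75-/-* mouse held 84.5% to 97.9% of the summed level. This left 5.35 to 39.5 normalized counts for the other two, beside a sum of 34.2 in the 3 WT mice. The highest WT mouse held 62.5% to 72.0% of that sum, which left 9.59 to 12.8 normalized counts for the rest of the WT group.

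The 4 members that move ions and water had low levels in WT mice on chow. They are the water channel gene *Aqp1* (chr6:55313417-55325540), the potassium channel genes *Kcnj13* (chr1:87314085-87322451) and *Kcne2* (chr16:92089277-92095017), the latter for an accessory subunit, and the sodium bicarbonate cotransporter gene *Slc4a5* (chr6:83196810-83281927). The listed group value of each was 0.00 in WT mice, so no WT mouse was clearly above 1 CPM for any of the 4. *Kcnj13* had a mean of 2.68 normalized counts in WT and 74.2 in *Gpr75-/-* mice, with a log2 fold change of 4.79 (SE 2.75). *Aqp1* had 3.05 and 43.0 normalized counts (log2 fold change 3.82, SE 2.20). *Kcne2* had 12.3 and 89.5 (log2 fold change 2.86, SE 1.79), and *Slc4a5* had 6.56 and 62.1 (log2 fold change 3.24, SE 1.56). In all 4, the *Gpr75-/-* values allow a single mouse to hold the whole level. The lowest share that the values allow for the highest mouse was 81.1% for *Kcnj13*, 62.3% for *Aqp1*, 84.7% for *Kcne2* and 77.3% for *Slc4a5*.

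*Cldn2* (chrX:138701577-138712135) encodes claudin-2, a tight junction protein that lets sodium ions and water pass between cells and marks the leaky epithelium of the choroid plexus. Its listed group value was also 0.00 in WT mice, where its mean was 13.4 normalized counts. In *Gpr75-/-* mice the mean was 74.8, of which the highest mouse held at least 81.8%, for a log2 fold change of 2.48 (SE 1.41). *Tmem72*, which encodes a transmembrane protein (chr6:116656024-116693874), had 10.03 normalized counts in WT mice and 49.4 in *Gpr75-/-* mice. Here the highest *Gpr75-/-* mouse held 70.6% to 97.8%, and the log2 fold change was 2.30 (SE 1.38). With *Tmem72*, 6 of the 10 genes had a group value of 0.00 in WT mice on chow, as did 73 of all 16855 genes (0.433%).

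*F5* encodes coagulation factor V (chr1:163979407-164047846). It stood at 30.7 normalized counts in WT and 155 in *Gpr75-/-* mice on chow, a log2 fold change of 2.33 (SE 1.27), and the highest *Gpr75-/-* mouse held 89.1% to 94.4% of the summed level. *Kl* encodes α-klotho, a coreceptor for fibroblast growth factor 23 that is also released into cerebrospinal fluid (chr5:150876072-150917282). Its mean was 122 normalized counts in WT mice, which shared it evenly enough that the highest held at most 46.6%, and 589 in *Gpr75-/-* mice (log2 fold change 2.27, SE 1.11). The highest *Gpr75-/-* mouse held 49.0% to 86.3% of the summed level, so the values allow either 1 or more than 1 high mouse.

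**Figure D1:**
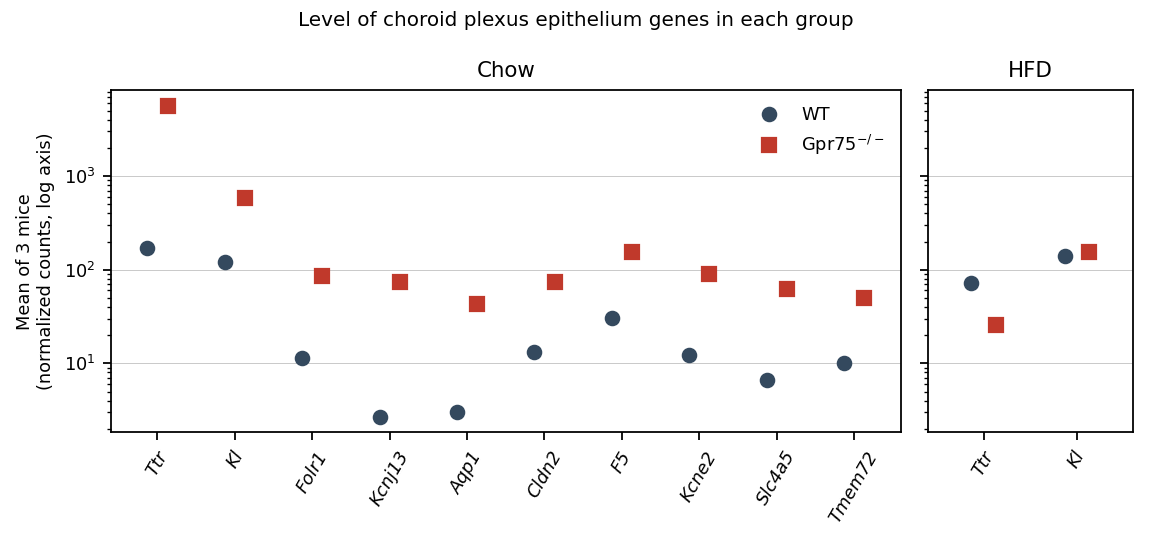
Mean of 3 mice in each group, in normalized counts on a log axis, for WT (circles) and *Gpr75-/-* mice (squares) on each diet; the diets were scaled separately and values of single mice were not used, so no error bars are drawn. On chow every *Gpr75-/-* mean is above the WT mean, with 43.0 against 3.05 for *Aqp1*, the lowest *Gpr75-/-* mean, and 5649 against 172 for *Ttr*, the highest, while on the HFD *Ttr* and *Kl* have a row and *Ttr* is lower in *Gpr75-/-* mice.

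To see how common such unevenness was, the same range was worked out for every gene with a group mean of at least 30 normalized counts. A gene was counted when even the lowest share that the values allow for the highest mouse was at least 60%, a limit set after the values were seen. Genes whose range only reaches past 60% were left out, so each count is a minimum. In chow-fed *Gpr75-/-* mice, 19 of 15639 genes (0.121%) were counted. Of these 19, 9 were among the 10 genes described here, all but *Kl*, and 4 were other choroid plexus genes, *Slc13a4*, *Ecrg4*, *Abca4* and *Trpv4*. Another 2, *Chrnb4* and *Pou4f1*, belong to a list of thalamus and habenula genes, and *Ankrd63*, *Rbm47*, *Gm9701* and *Gstm3* are on no list. In chow-fed WT mice, 3 of 15671 genes (0.0191%) passed the same limit, none of them on a choroid plexus list. Of the 10 members, 3 could be counted in WT mice, *Ttr*, *Kl* and *F5*, since the WT means of the other 7 were below 30 normalized counts. Of these, only *Kl* stayed below 60%, with at most 46.6% in the highest WT mouse. The WT ranges of *Ttr* (48.2% to 81.3%) and *F5* (33.3% to 94.9%) lie on both sides of 60% and do not decide it. On the HFD it was 15 of 15762 genes in *Gpr75-/-* mice (0.0952%) and 0 of 15746 in WT mice (0%), with no member among them. The members that could be counted there were *Kl* in both groups and *Ttr* in WT mice, since *Ttr* was below the mean of 30 normalized counts in *Gpr75-/-* mice and the others had no row. Since the members were selected on the chow contrast, nothing is read from their share of these genes.

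**Figure D2:**
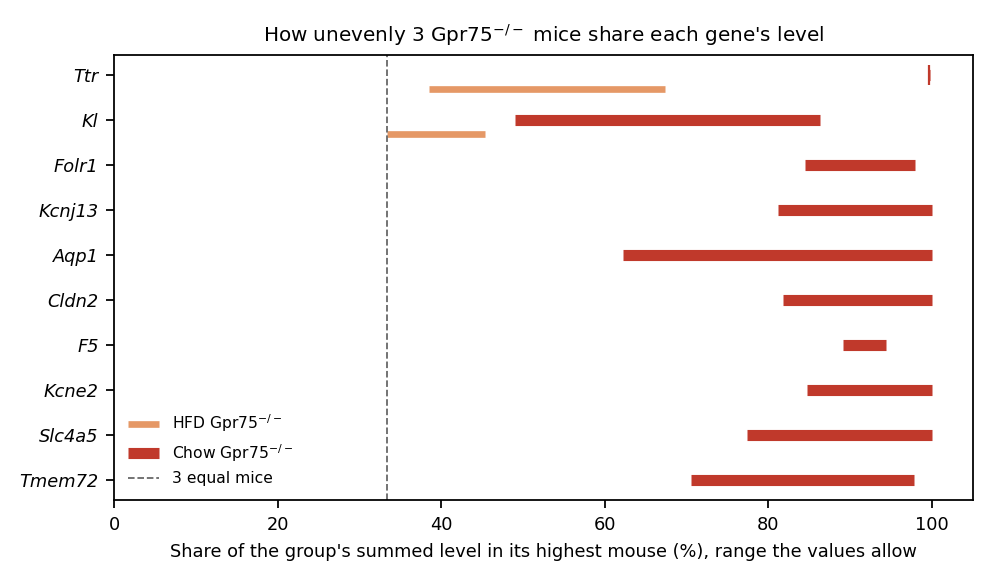
Range, in percent of the summed level of 3 *Gpr75-/-* mice, that the highest mouse can have held for each gene, on chow (thick bars) and, for *Ttr* and *Kl*, on the HFD (thin bars); the dashed line marks 3 equal mice. On chow the bar of *Ttr* spans 99.6% to 99.8% and that of *Kl* 49.0% to 86.3%, and on the HFD the bar of *Ttr* spans 38.5% to 67.4%.

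Standard errors come from the same mice as the group values and add no independent measure. An SE can be set against the error that counting reads would give by itself. For the median gene tested on chow the SE was 2.02 times that error. It was 34.2 times for *Ttr*, the second highest ratio of all genes, and 13.4 times for *Kl*, where genes of like mean had medians of 3.20 and 1.96. For the other 8 members it ranged from 4.47 (*Aqp1*) to 7.70 (*F5*), where genes with means within 1.5-fold of theirs had medians of 1.70 to 1.76. The gene with the highest ratio of all on chow, 56.1 beside 4.80 for genes of like mean, was *Enpp2*, which the choroid plexus epithelium expresses strongly and which belongs to the list of other choroid plexus genes.

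The genes were chosen by a chow contrast that holds none of the HFD mice, though HFD results were known when they were chosen. *Ttr* was listed there with means of 71.6 normalized counts in WT and 25.5 in *Gpr75-/-* mice. Its mean log2 CPM was 1.85 and 0.43, close to the 1.88 and 0.39 of equal mice. At most 49.2% of the WT level and 38.5% to 67.4% of the *Gpr75-/-* level was held by the highest mouse, and the SE of 0.33 was 1.71 times the counting error, about the same as the 1.73 of genes with like means. *Ttr* fell by 1.49 on the log2 scale in *Gpr75-/-* mice, a fold of 0.356 with a 95% interval of 0.227 to 0.557. The Wald test gave an adjusted p of 0.00692 after Benjamini-Hochberg adjustment over 16089 genes. Over the alternative settings it ran from 0.000198 to 0.0969, the last with Bonferroni adjustment. The group means differed in the opposite direction on chow, which rests on 1 *Gpr75-/-* mouse. The chow levels of the other mice, given above as a description, come from the contrast that chose *Ttr* and are not read for the direction on the HFD. The difference between the diets was not tested for *Ttr*, whose chow value chose it.

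*Kl* had 140 normalized counts in WT and 155 in *Gpr75-/-* mice on the HFD. The log2 fold change was 0.15 (SE 0.17), or 1.11-fold with a 95% interval of 0.874 to 1.41, and no difference was detected (adjusted p = 1, by the Wald test and Benjamini-Hochberg). At most 47.2% of the WT and 45.4% of the *Gpr75-/-* level lay in the highest mouse. Of all genes tested on the HFD, 32 of 16089 (0.199%) had an adjusted p under 0.05, 26 of them lower in *Gpr75-/-* mice (0.162%). Of the 2 members tested, 1 was past that threshold, *Ttr*. Of the 16744 genes listed on the HFD, 6 had a p-value left blank for a count outlier (0.0358%), and 0 of them were members.

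The other 8 members, *Folr1*, *Aqp1*, *Kcnj13*, *Kcne2*, *Slc4a5*, *Cldn2*, *F5* and *Tmem72*, had no row in the HFD table. No gene of either table had a group value of 0 in both groups. On chow these 8 had WT means of 2.68 to 30.7 normalized counts, and of the 1251 genes with WT means up to that level, 378 (30.2%) had no row on the HFD. By their mean over all 6 chow mice, 23.0 to 92.7 normalized counts, they lay in a range where 185 of 3850 genes (4.81%) had none. That mean includes the higher *Gpr75-/-* levels.

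A list of 49 other genes of the choroid plexus epithelium was examined in the same way. On chow 43 had a row and 41 were tested. Of the 41, 37 had a higher mean in *Gpr75-/-* mice, as did 7912 of all 16191 genes tested, and the median log2 fold change of the 41 was 0.40, where the median of all genes was -0.00. Among the 26 of them with means of at least 100 normalized counts the median was 0.19. No gene of the list had an adjusted p under 0.05 (by the Wald test and Benjamini-Hochberg), and 9 had an unadjusted p under 0.05. Over all genes 10 of 16191 were called (0.0618%), and 758 had an unadjusted p under 0.05. *Ecrg4*, which encodes a secreted neuropeptide precursor of the choroid plexus, had 30.1 normalized counts in WT and 159 in *Gpr75-/-* mice, with 80.0% to 87.5% in the highest *Gpr75-/-* mouse. Its log2 fold change of 2.40 (SE 1.14) lies between those of the members, but its p-value was not left blank. The cutoff for a count outlier was not used here, so no member can be called nearest to it. *Sostdc1*, for a secreted inhibitor of BMP signaling, stood at 41.9 and 157 normalized counts (log2 fold change 1.91, SE 0.93). *Steap1* and *Wdr86* had log2 fold changes of 2.52 (SE 1.30) and 3.79 (SE 2.01) at means too low to be tested.

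*Enpp2*, *Vat1l* and *Slc4a10* had the highest means of the list. On chow *Enpp2*, which encodes autotaxin and is also made by oligodendrocytes, had 5615 normalized counts in WT and 11167 in *Gpr75-/-* mice, with a log2 fold change of 0.99 (SE 0.76) and 45.6% to 72.2% in the highest *Gpr75-/-* mouse. *Vat1l* and *Slc4a10*, the second for a neuronal and choroidal bicarbonate transporter, had log2 fold changes of 0.10 (SE 0.06) and 0.03 (SE 0.09). *Otx2*, the gene of a transcription factor needed for choroid plexus development, had 90.0 and 130 normalized counts (log2 fold change 0.53, SE 0.54). Over the 43 listed genes the median ratio of SE to counting error was 3.64 on chow, beside 1.99 for all listed genes.

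On the HFD that ratio was 1.88 for the 40 listed genes of the list, beside 1.89 for all listed genes. Of 38 tested, 23 were higher and 15 lower in *Gpr75-/-* mice, with a median log2 fold change of 0.03. There *Slc12a2*, the gene of a sodium-potassium-chloride cotransporter of the choroid plexus and of glia, fell by 0.29 on the log2 scale, from 2883 to 2356 normalized counts (SE 0.07, adjusted p = 0.00997, by the Wald test and Benjamini-Hochberg). *Enpp2* fell by 0.24, from 6571 to 5568 normalized counts (SE 0.06, adjusted p = 0.0335). These are 2 of 38 tested, and none was called with Bonferroni adjustment. *Ecrg4* had 38.1 normalized counts in WT and 24.9 in *Gpr75-/-* HFD-fed mice (log2 fold change -0.62, SE 0.40, adjusted p = 1). *Slc13a4*, a sulfate transporter gene of choroid plexus and meninges, was itself left without a p-value on the HFD for a count outlier. It had 86.8 and 180.0 normalized counts there, with 78.9% to 86.6% in the highest *Gpr75-/-* mouse.

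For 38 genes of this list, the log2 fold change on chow was tested against that on the HFD, as their difference over the combined SE. None had an adjusted p under 0.05, as was the case for all 15893 genes tested (0%, by the Wald test and Benjamini-Hochberg), and 3 of the 38 and 460 of the 15893 had an unadjusted p under 0.05. The chow value was the higher in 31 of 38, and the median difference was 0.22, beside -0.01 for all genes.

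**Figure D3:**
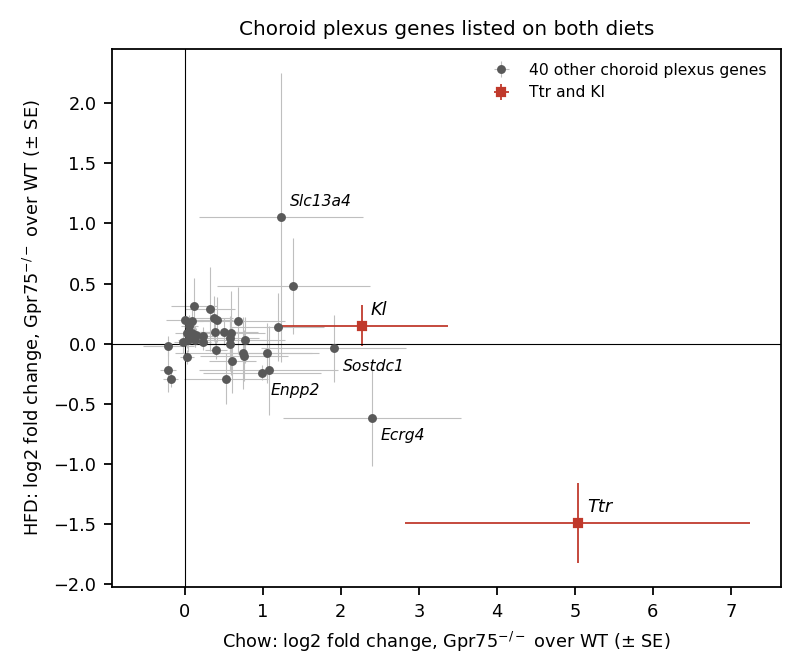
Log2 fold change of *Gpr75-/-* over WT on chow (x axis) against the HFD (y axis), each with its SE, for 40 other choroid plexus genes (circles) and for *Ttr* and *Kl* (squares), which are the members with a row on both diets. The other genes run from -0.21 to 2.40 on chow and from -0.62 to 1.05 on the HFD, and *Ttr* lies apart at 5.04 and -1.49.

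Genes with the same jobs as the members were looked at with the members left out. Some are also on the list of other choroid plexus genes. For ion, water and bicarbonate transport, 17 of 18 had a row on each diet and *Kcnq1* had none. On chow 9 were higher and 8 lower in *Gpr75-/-* mice with a median log2 fold change of 0.02, 0 were called and 2 had an unadjusted p under 0.05. *Atp1b1*, *Atp1b2* and *Car2* had the highest means, with chow log2 fold changes of -0.00 (SE 0.06), 0.04 (SE 0.07) and -0.26 (SE 0.09). Those shared with the choroid plexus list had chow log2 fold changes of 1.08 (SE 0.89) for *Trpv4*, 0.75 (SE 0.88) for *Car12*, 0.51 (SE 0.43) for *Clic6*, 0.13 (SE 0.12) for *Slc4a2*, 0.03 (SE 0.09) for *Slc4a10* and -0.18 (SE 0.10) for *Slc12a2*. On the HFD the median was -0.01, and *Slc12a2*, given above, was the 1 called. Of 13 other tight junction genes, 12 had a row on chow and 11 on the HFD, with medians of 0.05 and -0.04. *Cldn1*, *Cgnl1* and *Cldn3* are also on the choroid plexus list, and on chow *Cldn1* had a log2 fold change of 1.19 (SE 0.60) and *Cgnl1* 0.03 (SE 0.16). *Cldn11*, the claudin of myelin sheaths, was called on the HFD, where it fell by 0.33 on the log2 scale (SE 0.06, adjusted p = 0.000221, by the Wald test and Benjamini-Hochberg), while *Tjp1* and *Cldn12*, the others of the 3 with the highest means, had log2 fold changes of -0.04 (SE 0.07) and -0.02 (SE 0.07). On chow 0 were called and 2 had an unadjusted p under 0.05. For the carriers of folate, retinol and thyroid hormone, 9 of 10 had a row on each diet, with medians of 0.13 on chow and 0.12 on the HFD, and 0 were called at either an adjusted or an unadjusted p under 0.05. *Stra6* and *Rdh5*, shared with the choroid plexus list, had log2 fold changes of 0.33 (SE 0.32) and 0.37 (SE 0.25) on chow. *Slco1a4* and *Slco1c1*, for organic anion transporters that also carry thyroid hormone, had the highest means of that list, with log2 fold changes of -0.01 (SE 0.08) and 0.13 (SE 0.12) on chow.

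Lists for cells that lie next to the choroid plexus epithelium were compared on chow as well. For leptomeningeal and choroid plexus stromal cells, 13 of 16 had a row, *Igf2*, *Osr1* and *Slc22a6* did not, and the summed level was 2424 normalized counts in WT and 2521 in *Gpr75-/-* mice. *Pdgfra*, which oligodendrocyte precursors also express, *Col1a2* and *Slc13a3* had the highest means, with log2 fold changes of -0.06 (SE 0.09), 0.13 (SE 0.17) and -0.05 (SE 0.14). The median log2 fold change of the 13 was 0.13, and 0 were called or had an unadjusted p under 0.05. For ependymal cells, which line the ventricles, 13 of 14 had a row, all but *Mia*, with sums of 1461 and 1503 and a median of 0.04. The 3 highest, *Foxj1*, *Ccdc153* and *Ak7*, had log2 fold changes of 0.18 (SE 0.14), -0.05 (SE 0.17) and -0.05 (SE 0.18). For tanycytes, 11 of 12 had a row, all but *Rax*, with sums of 4205 and 4018, a median of -0.13, and *Col25a1* as the gene with the highest mean. For fenestrated endothelium, 7 of 7 had a row, with sums of 3171 and 3084, a median of 0.08 and *Flt1* highest. For macrophages of brain borders, 4 of 10 had a row, *Stab1* being the highest, with sums of 206 and 236, while *Cbr2*, *Cd209f*, *Clec4n*, *Lyve1*, *Ms4a7* and *Pf4* had none. None of these ependymal, tanycyte, endothelial or macrophage genes had an unadjusted p under 0.05 on chow.

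Of 6 red blood cell genes, 5 had a row on chow, all but *Slc4a1*, and all 5 were higher in *Gpr75-/-* mice, with sums of 5156 and 8194 normalized counts and a median log2 fold change of 0.60. *Hbb-bs*, the gene with the highest mean, and *Hbb-bt* were called, at log2 fold changes of 0.78 (SE 0.10, Wald test, Benjamini-Hochberg adjusted p = 3.91e-10) and 0.72 (SE 0.11, adjusted p = 9.49e-07). The highest *Gpr75-/-* mouse held 33.3% to 51.2% of the level of *Hbb-bs* and 33.3% to 48.0% of that of *Hbb-bt*. The thalamus and habenula list, for regions beside the third ventricle, had 16 of 16 genes with a row, sums of 34815 and 36185, a median of 0.05, and 0 called or with an unadjusted p under 0.05. *Slc17a6*, *Tcf7l2* and *Calb2*, its highest, had log2 fold changes of 0.11 (SE 0.07), 0.08 (SE 0.08) and 0.12 (SE 0.07). *Pou4f1*, a transcription factor gene of the medial habenula, was the 11th gene left without a p-value on chow, with 12.6 normalized counts in WT and 40.6 in *Gpr75-/-* mice. The highest mouse held 72.9% to 84.0% in WT and 60.8% to 98.1% in *Gpr75-/-* mice. For hippocampus and cortex, 11 of 15 had a row, *Emx1*, *Lct*, *Neurod2* and *Spink8* did not, the sums were 5339 and 5034, the median was -0.09, *Wfs1* was highest, and 0 were called or had an unadjusted p under 0.05. The part of blood, of neighboring cells or of neighboring regions in the chow values of the choroid plexus genes was not tested.

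The same lists were then compared on the HFD, where 8684 of all 16744 listed genes were higher in *Gpr75-/-* mice and 723 of 16089 tested had an unadjusted p under 0.05. Leptomeningeal and stromal genes were higher in *Gpr75-/-* mice in 14 of 15 cases, with sums of 3059 and 3651, *Pdgfra* as the gene with the highest mean and a median log2 fold change of 0.56. None of 13 tested was called, and the 1 with an unadjusted p under 0.05 was *Pdgfra*, the gene that was lower (log2 fold change -0.18, SE 0.09). In 4 of these genes, even the lowest share that the values allow for the highest *Gpr75-/-* mouse was at least 60%. Thalamus and habenula genes were lower in 14 of 16 cases in *Gpr75-/-* mice, with sums of 34961 and 31515 and a median log2 fold change of -0.31. None was called and 4 of 15 tested had an unadjusted p under 0.05. *Pou4f1* had 32.3 normalized counts in WT and 2.57 in *Gpr75-/-* mice there (log2 fold change -3.65, SE 1.66), at a mean too low to be tested. *Chrnb4*, for a nicotinic receptor subunit of the medial habenula, had 40.9 and 19.5. Hypothalamic neuron genes were higher in 22 of 23 cases, with sums of 20575 and 24263 and a median of 0.27. Of these genes 9 had an unadjusted p under 0.05, and *Pmch* was called (log2 fold change 0.37, SE 0.07, adjusted p = 0.000749, by the Wald test and Benjamini-Hochberg). On chow 14 of the 23 were higher and 9 lower, with sums of 19615 and 19795 and a median of 0.02. There 0 were called and 1 had an unadjusted p under 0.05. Ependymal genes had a median of -0.10 and sums of 1619 and 1515, tanycyte genes a median of -0.08 and sums of 4097 and 3728, macrophage genes a median of 0.08 and sums of 258 and 274, and fenestrated endothelium genes a median of -0.02 and sums of 3257 and 3162. Red blood cell genes had a median of -0.18 and sums of 6193 and 5536, and hippocampus and cortex genes a median of -0.02 and sums of 4964 and 4575. None of the last 6 lists had a called gene on the HFD. An unadjusted p under 0.05 was found for 3 tanycyte genes, 1 red blood cell gene, 2 hippocampus and cortex genes and 0 of the others. The part of these cells and regions in the lower *Ttr* level was not tested.

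Outside the 10 members, the genes with the largest chow minus HFD difference in log2 fold change, among those with means of at least 50 normalized counts on both diets, were *Gpr151*, *Sostdc1*, *Scube1*, *Enpp2*, *Slc22a15*, *Chrnb3*, *Msx1*, *Tnfsf10*, *Gm2004* and *Cldn1*. For comparison, the difference was 6.53 for *Ttr* and 2.12 for *Kl*. *Gpr151*, an orphan receptor gene of habenula neurons, had log2 fold changes of 0.80 (SE 0.78) on chow and -1.31 (SE 0.58) on the HFD. *Sostdc1*, *Enpp2*, *Msx1* and *Cldn1* are on the list of other choroid plexus genes. On the HFD the values of *Sostdc1*, *Msx1* and *Cldn1* were -0.04 (SE 0.28), -0.08 (SE 0.25) and 0.14 (SE 0.28), against 1.91 (SE 0.93), 1.06 (SE 0.66) and 1.19 (SE 0.60) on chow. All 10 genes had an adjusted p of 1 for the difference, the 10 being picked for its size.

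The promoters of the members were read from RefSeq (GRCm38.p6, a build other than that of the gene positions above), as windows of 300 bases that start 250 bases before the first transcribed base. A window was found for 8 members, with 2 for *Kcne2*. *Ttr* and *Folr1* had no entry. TAATCC, the core of the site bound by OTX2 and related homeodomain proteins, was searched on both strands and was in 0 of the 9 windows, while 7.06% of all 32851 windows held it. The windows differed in base composition, from 46.0% G and C for *Kcnj13* to 67.3% for *Kl*, with a median of 57.7% beside 52.7% for all windows. TATAAA, the TATA box motif, was added after the sequences were seen. It was in 3 of the 9 windows on either strand and in 13.6% of all windows. For *Kcnj13* and *Cldn2* it lies on the coding strand and begins 29 and 35 bases before the first transcribed base, and for *Slc4a5* on the other strand 127 bases before it. The 250 bases before the start of the first 2 are shown with this motif in capitals, *Kcnj13* from the minus strand (chr1:87394730-87394979) and *Cldn2* from the plus strand (chrX:139800558-139800807). Both were picked with the motif known. On chow both had a group value of 0.00 in WT mice and at least 81.1% of the *Gpr75-/-* level in 1 mouse. So did *Kcne2*, whose windows hold no TATAAA, and a link between motif and level was not tested.
Kcnj13: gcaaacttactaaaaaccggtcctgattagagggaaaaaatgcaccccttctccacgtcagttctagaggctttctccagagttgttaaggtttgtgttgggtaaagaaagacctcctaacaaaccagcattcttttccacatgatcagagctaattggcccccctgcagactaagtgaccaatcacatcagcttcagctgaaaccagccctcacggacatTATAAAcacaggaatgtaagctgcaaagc
Cldn2: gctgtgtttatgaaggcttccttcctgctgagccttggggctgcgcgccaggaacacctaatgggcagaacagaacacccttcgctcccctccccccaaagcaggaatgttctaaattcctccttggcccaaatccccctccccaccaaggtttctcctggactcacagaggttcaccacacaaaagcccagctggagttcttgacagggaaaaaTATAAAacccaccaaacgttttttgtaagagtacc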

How the data were processed

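Hypothalamus RNA of 12 mice was made into mRNA libraries and sequenced by the authors. The submitters' processing notes name STAR, featureCounts, StringTie, DESeq2 and the build GRCm39. The authors fitted DESeq2 to counts separately on each diet. The deposited signal per gene is the mean normalized count over 6 mice. The deposited log2 fold change and its standard error are the authors' estimates, and the deposited log2 group values hold 1 number for each group. Of the deposited p-values only the blank cells were used, which mark count outliers and genes filtered for a low mean. Genes kept by that filter had means of at least 25.1 normalized counts on chow and 26.9 on the HFD, and a median standard error of 0.12 and 0.11.

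From these values the Wald p-value (2-sided, normal) was recomputed and adjusted by Benjamini-Hochberg over 16191 and 16089 genes, with 0.05 as threshold. Ranges for the highest mouse allowed for rounding of the group values by 0.005 and an error of 0.03 in the mean log2 CPM. Their code, and that of the tests, was tested on simulated data. Alternatives changed the filter, the genes tested, the adjustment, the centring and the scale of the statistic. Named genes are the members, genes with a blank p-value, called genes and the 3 highest means of each list, and the 10 largest differences between diets. The values of 1 such gene are not reported here. Genes named outside this rule, such as *Ecrg4*, *Steap1*, *Wdr86*, *Otx2*, *Chrnb4* and those shared between lists, were chosen after their values were seen. Of the 6 genes with a blank p-value on the HFD, *Slc13a4* and *Slc22a6* are on the lists, and *Cbln3*, *Cnpy1*, *Fat2* and *Gabra6* are not. The members and lists were chosen with earlier results of these data known. Python 3.11.15, numpy 2.4.6, pandas 2.3.3, scipy 1.17.1 and matplotlib 3.10.9 were used.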

Additional observations from a re-analysis of the deposited data

How the results depend on the processing

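Without a filter on low means 32 genes were called on the HFD and 10 on chow, and with protein-coding genes alone 30 and 8. In both settings *Ttr*, *Enpp2* and *Slc12a2* were past the threshold on the HFD. Bonferroni adjustment, which is stricter by construction, called 11 genes on the HFD, with 0 members and 0 other choroid plexus genes. The adjusted p ran over the alternatives from 0.000198 to 0.0969 for *Ttr*, from 0.00193 to 0.846 for *Enpp2* and from 0.000334 to 0.16 for *Slc12a2*, each highest with Bonferroni. At means of at least 100 normalized counts *Ttr* is not tested, so 0 members were called on the HFD and their median log2 fold change changed sign from -0.67 to 0.15, that of *Kl* alone. Scaling the Wald statistics by their median absolute deviation called 93 genes on the HFD, 20 on chow and 2 for the difference between the diets, *Gm43305* and *Tmem181b-ps*; the cause was not tested. The median of other choroid plexus genes on chow, 0.40, was 0.19 at means of at least 100. With other limits for an uneven gene, chosen after seeing the data, 13 to 24 genes and 8 or 9 members passed in chow-fed *Gpr75-/-* mice, and at group means of at least 100 normalized counts 3 genes and 2 members, since fewer genes are in reach. No paired analysis was possible because no values of single mice were analysed here, though the labels number the mice of each group 1 to 3. Leave-one-out and a replicate block were not run for the same reason.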

Other observations

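In HFD-fed *Gpr75-/-* mice, 15 genes were counted with at least 60% as the lowest share that the values allow for the highest mouse. Of these, 4 were on the list of leptomeningeal and choroid plexus stromal cells, *Slc22a6*, *Slc47a1*, *Aldh1a2* and *Fmod*. Another 1, *Slc13a4*, was on that of other choroid plexus genes. *Fmod*, for a collagen-binding proteoglycan of meningeal fibroblasts, had 102 normalized counts in WT and 207 in *Gpr75-/-* mice, with 61.9% to 83.5% in the highest. *Slc22a6*, for an organic anion transporter, had 23.9 and 67.5 normalized counts and a p-value left blank for a count outlier. The other 10 uneven genes, *Cbln3*, *Prg4*, *Gabra6*, *Cnpy1*, *Cdh1*, *Capn11*, *Fam180a*, *Il16*, *Igfbp6* and *En2*, are on no list.

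On chow the genes counted as uneven by that limit in WT mice were *Adora2a*, *Gm10722* and *Ankrd63*. *Ankrd63* was uneven in both chow groups. The highest mouse held 62.9% to 81.6% of the summed level in WT mice, where the mean was 155 normalized counts, and 69.7% to 97.3% in *Gpr75-/-* mice, where it was 48.2. It is on no list.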
